A study of Homo sapiens with 12 samples.

Results

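The response of LNCaP cells to dihydrotestosterone (DHT) was compared between cells that contain Bag-1L and cells that lack it. For every gene, the log2 change from vehicle to DHT in the control line was subtracted from the same change in the Bag-1L knockout (KO) line, and this value is called the difference in response. A positive difference means that the response of the KO line lay above that of the control line, and a negative difference means that it lay below. The comparison rests on the 8 hormone-starved samples of the 12 in the series, with 2 replicates in each of 4 groups. LNCaP is an established androgen-dependent prostate cancer cell line. The KO line carries a lesion made with a TALEN, an engineered nuclease, at the first codon (CTG) of Bag-1L, the longest protein made from BAG1. The lesion spares the starts of the shorter Bag-1 proteins, and the control is a vector line. In all 4 groups the cells had spent 72 h in medium with charcoal/dextran-treated serum and then 16 h with 10 nM DHT or with its solvent ethanol (EtOH). The other 4 samples came from both lines in full medium (FM) and served as samples that played no part in the difference. The methods describe single clones isolated by serial dilution, so effects of Bag-1L loss and of clonal origin cannot be told apart. The labels do not say that replicates were separate cultures, so p-values measure only the spread between these samples, which may be technical.

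DHT, the most potent natural androgen, raises the transcription of some genes of prostate cells and lowers that of others. Bag-1 proteins are co-chaperones that act on Hsp70 through their BAG domain, and Bag-1L is the nuclear form. In prostate cells the androgen response covers secreted proteases, lipid and steroid metabolism, polyamine synthesis, protein folding for secretion, and feedback enzymes that inactivate androgens.

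The largest difference in response belonged to UGT2B11, and its neighbour UGT2B28 lay just outside the threshold. Both encode UDP-glucuronosyltransferases, enzymes of the family that conjugates steroids, and they resemble each other closely in sequence. Across their exons, 36.1% of the 50-base words of UGT2B11 and 34.3% of those of UGT2B28 also occurred in the exons of another gene. Reads from such stretches align to several places and are left out by the counter, so the values of these 2 genes are uncertain.

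The gene counts of the 8 samples summed to between 20826843 and 30354666, and a floor of 3 counts then equals 0.0988 to 0.144 CPM, a scale on which every sample has the same total. The 10 most abundant genes took between 5.22% and 6.31% of the counts, and mitochondrial genes between 3.56% and 4.80%. The median absolute log2 difference between replicates was 0.238 in control EtOH, 0.172 in control DHT, 0.128 in KO DHT and 0.0828 in KO EtOH. In every group the chi-square per degree of freedom between replicates was at least 4.83, above sampling noise. Of the markers listed, 11 of 12 prostate luminal markers averaged at least 100 normalized counts, as did 1 of 6 basal markers, 1 of 8 fibroblast markers and 0 of 7 leukocyte markers.

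BAG1 itself was read first. Here and below, paired values are replicates 1 and 2, and cells without DHT received EtOH. Its normalized counts in replicates 1 and 2 were 1718.5 and 2744.3 without and 2233.5 and 2668.1 with DHT in control cells, and 1214.5 and 1120.4 without and 1105.9 and 1138.4 with DHT in KO cells. All 4 KO samples lay below all 4 control samples. KO over control was -0.93 on the log2 scale in EtOH (standard error 0.20, adjusted p = 0.000133) and -1.13 in DHT (standard error 0.20, adjusted p = 7.42e-07). The counts do not separate Bag-1L from the shorter forms. DHT left it without a call in either line, at 0.14 in control and -0.06 in KO, and its difference in response was -0.19 (standard error 0.28).

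In control cells DHT raised 1003 of 17466 genes tested (5.74%) and lowered 830 (4.75%), together 10.5%, at an adjusted p of at most 0.05 and a fold change of at least 1.5. In KO cells it raised 717 of 16511 genes (4.34%) and lowered 487 (2.95%), together 7.29%. The test of the difference itself called 19 of 24628 genes (0.0771%), of which 10 (0.0406%) had a positive and 9 (0.0365%) a negative difference. All 19 had a symbol and averaged at least 100 normalized counts. Among them, 6 genes responded more strongly in KO, including TMPRSS2, TRPM8, ELOVL2, CENPN and NHSL1. A weaker response was found for 9 genes, of which UGT2B11, TNFAIP3, ID1, ID2, KLF4, ADAMTS1 and BICD2 were raised by DHT in control cells and BCHE and ACKR3 were lowered. The remaining 4 genes, TUBA1A, CFAP69, EFNB2 and ARHGEF26, had point estimates of opposite sign in the 2 lines, but none of them passed in both lines, so a reversal was not shown by a call on each side.

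**Figure D1:**
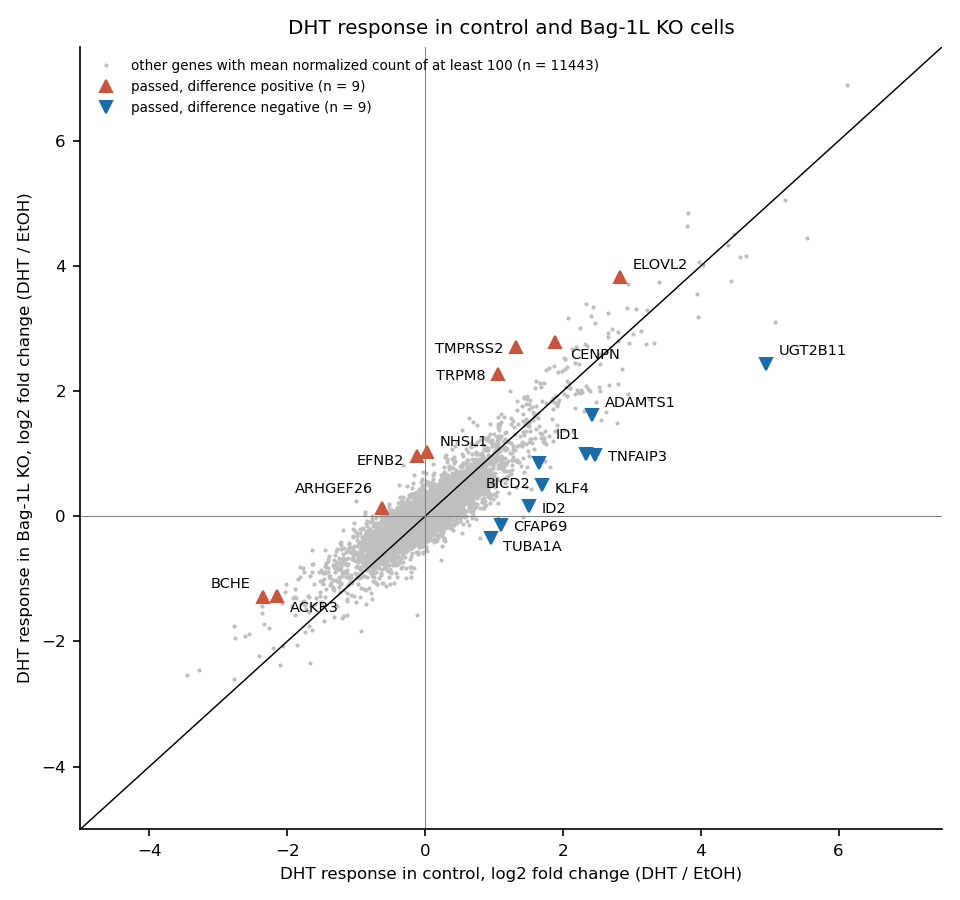
Each point is a gene that averaged at least 100 normalized counts; the horizontal axis is its log2 change with DHT in control cells and the vertical axis its log2 change with DHT in Bag-1L KO cells. The line marks equal responses; the triangles are 18 of the 19 genes whose difference passed, pointing up where it was positive and down where it was negative, and UGT2B11 lies farthest below the line.

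The precision of the test was read next. Over the 11463 genes whose normalized counts averaged at least 100, the median standard error was 0.243 for the difference, and 0.171 or 0.172 for each of the 4 comparisons that make it up. The genes called had an absolute difference between 0.76 and 2.51, and none was called with a difference under 4.14 times its standard error. At an unadjusted p under 0.05 there were 418 genes (1.697%) with DESeq2 and 1011 of 24628 with edgeR. Both counts were below the share of 0.05 that p-values would give without any difference, so they do not show further differing genes. After adjustment edgeR called 3 genes (0.0122%), all among the 19. These 3 were UGT2B11, TMPRSS2 and ID2. A gene absent from the 19 was therefore not shown to respond alike.

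Of the genes with a stronger response in KO, TMPRSS2 (chr21:42836227-42903043), an androgen-regulated serine protease of the cell surface, had the clearest difference. Its normalized counts in replicates 1 and 2 were 1167.7 and 1341.3 in control EtOH and 3206.7 and 3050.7 in control DHT. In KO they were 873.4 and 816.4 in EtOH and 5886.0 and 5188.0 in DHT. The KO samples were thus the lowest before DHT and the highest after it, with no overlap at either end. TMPRSS2 rose 2.49-fold in control and 6.56-fold in KO, which differed by 1.39 (standard error 0.20, adjusted p = 8.07e-08). Its gene body overlaps MX1 on the opposite strand, and whether counting used strand is not given in the sources used here.

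TRPM8 (chr2:234826018-234928166), a calcium-permeable channel opened by cold and menthol, started from overlapping levels in both lines. Its normalized counts were 270.1 and 268.7 without and 542.5 and 576.0 with DHT in control cells, and 251.2 and 277.2 without and 1347.3 and 1204.6 with DHT in KO cells. The lines overlapped in EtOH and were far apart in DHT. TRPM8 rose 2.08-fold in control and 4.82-fold in KO, and the difference was 1.22 (standard error 0.24, adjusted p = 0.00125).

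The next 2 genes started lower in KO and did not pass between the lines after DHT. ELOVL2 (chr6:10980992-11044538), an elongase of polyunsaturated fatty acids, had normalized counts of 768.9 and 717.1 before and 5605.3 and 4947.4 after DHT in control cells, against 323.8 and 342.3 before and 4946.9 and 4500.7 after DHT in KO cells. The 2 KO samples were below the control samples in EtOH, while in DHT the lines nearly met. Its rise was 7.10-fold in control and 14.2-fold in KO (difference 0.998, standard error 0.21, adjusted p = 0.00389).

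CENPN (chr16:81040157-81066719), a kinetochore protein that binds centromeric nucleosomes, had normalized counts of 780.4 and 878.7 before and 2974.9 and 3155.1 after DHT in control cells, against 522.0 and 551.6 before and 3990.4 and 3406.1 after DHT in KO cells. KO was the lower line in EtOH and the higher in DHT, without overlap. Its rise was 3.70-fold in control and 6.89-fold in KO (difference 0.90, standard error 0.21, adjusted p = 0.0366). CENPN shares 11.9% of its 50-base words with the overlapping gene ENSG00000261061 and others, and overlaps CMC2 on the opposite strand, so its count is uncertain. NHSL1 (chr6:138743180-139013708), a relative of the protein altered in Nance-Horan syndrome, was the only one of the 6 without a response in control cells. Its counts were 321.0 and 332.3 before and 367.1 and 297.7 after DHT in control cells, against 687.9 and 687.4 before and 1412.0 and 1380.8 after DHT in KO cells. Every KO sample was above every control sample, and DHT raised it 2.03-fold in KO only (0.03 on the log2 scale in control, difference 0.997, standard error 0.23, adjusted p = 0.0344). The gene body of NHSL1 overlaps HEBP2, so its count is uncertain too.

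Among genes with a weaker response in KO, UGT2B11 came first. Its normalized counts were 24.0 and 22.2 without and 686.0 and 747.8 with DHT in control cells, and 85.3 and 66.0 without and 434.7 and 380.8 with DHT in KO cells. KO started above control and ended below it, with no overlap at either end. UGT2B11 rose 31-fold in control and 5.43-fold in KO, with the difference at -2.51 (standard error 0.36, adjusted p = 5.57e-08). Beside it, UGT2B28 had 10.6 and 9.1 before and 305.6 and 360.1 after DHT in control cells, against 21.9 and 22.0 before and 186.7 and 192.5 after DHT in KO cells, again with KO above before DHT and below after it. Its rise was 33.8-fold in control and 8.64-fold in KO, but the difference of -1.97 did not pass (standard error 0.51, adjusted p = 0.116).

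Transcription regulators and a signalling inhibitor made up 4 of the genes with a weaker response. ID1 (chr20:30193086-30194318) and ID2 (chr2:8818975-8824591) encode helix-loop-helix proteins that lack a DNA-binding region and sequester their partners. For ID2 the normalized counts were 1082.2 and 1167.6 without and 3120.5 and 3268.6 with DHT in control cells, and 1323.9 and 1219.9 without and 1368.0 and 1472.4 with DHT in KO cells. Control DHT stood apart from the other 6 samples. ID2 rose 2.84-fold in control, whereas its value in KO was 1.12-fold and did not pass (adjusted p = 0.652), and the difference was -1.35 (standard error 0.20, adjusted p = 8.07e-08).

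The paralogue ID1 passed between the lines at the EtOH end alone. Its counts were 166.3 and 188.9 without and 737.3 and 1061.9 with DHT in control cells, and 406.7 and 316.4 without and 681.1 and 762.7 with DHT in KO cells. The lines were apart in EtOH and overlapped in DHT. ID1 rose 5.07-fold in control and 2.00-fold in KO (difference -1.34, standard error 0.30, adjusted p = 0.0116). TNFAIP3 (chr6:138188351-138204451), which encodes the ubiquitin-editing enzyme A20 that restrains NF-kB, likewise passed in EtOH alone, with 55.7 and 55.6 before and 314.8 and 300.8 after DHT in control cells, against 177.4 and 169.2 before and 332.7 and 349.3 after DHT in KO cells. KO lay above control in both conditions without overlap, by far less in DHT. It rose 5.53-fold in control and 1.97-fold in KO (difference -1.49, standard error 0.31, adjusted p = 0.00389). KLF4 (chr9:110247133-110252763), a zinc finger transcription factor, had 295.1 and 269.7 before and 899.3 and 933.0 after DHT in control cells, against 409.0 and 425.4 before and 567.4 and 612.0 after DHT in KO cells. The KO values lay between the 2 control groups throughout. KLF4 rose 3.24-fold in control and its 1.41-fold value in KO was under the fold change minimum (difference -1.20, standard error 0.23, adjusted p = 0.00125).

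ADAMTS1 (chr21:28208074-28217728), a secreted metalloprotease of the extracellular matrix, and BICD2 (chr9:95473645-95527115), an adaptor that links cargo to dynein, ended lower in KO. ADAMTS1 had 736.2 and 713.1 without and 3960.4 and 3840.5 with DHT in control cells, and 560.0 and 609.9 without and 1755.4 and 1829.8 with DHT in KO cells. It rose 5.38-fold in control and 3.06-fold in KO (difference -0.81, standard error 0.20, adjusted p = 0.0455). For BICD2 the counts were 1247.5 and 1325.2 before and 4207.6 and 3878.4 after DHT in control cells, against 1299.7 and 1356.6 before and 2403.4 and 2382.7 after DHT in KO cells. The lines overlapped in EtOH and were apart in DHT, and BICD2 rose 3.14-fold in control and 1.80-fold in KO (difference -0.80, standard error 0.19, adjusted p = 0.0367).

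Both genes lowered by DHT with a weaker response in KO stood above control at each end. ACKR3 (chr2:237476430-237490997), an atypical receptor that takes up the chemokine CXCL12, had 5272.6 and 5378.5 without and 1243.9 and 1163.2 with DHT in control cells, and 8713.3 and 8171.0 without and 3425.4 and 3587.3 with DHT in KO cells. The change with DHT was -2.15 in control and -1.27 in KO (difference 0.88, standard error 0.18, adjusted p = 0.00389). BCHE (chr3:165490692-165555250), the cholinesterase of plasma, had 723.7 and 649.5 before and 111.8 and 156.5 after DHT in control cells, against 1294.0 and 1238.0 before and 524.3 and 514.2 after DHT in KO cells. Its change was -2.36 in control and -1.29 in KO (difference 1.07, standard error 0.25, adjusted p = 0.0367).

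Of the 4 genes whose responses pointed in opposite directions, TUBA1A (chr12:49578469-49582863), an alpha-tubulin, had 415.2 and 404.0 without and 698.4 and 890.0 with DHT in control cells, and 864.2 and 737.1 without and 579.9 and 678.2 with DHT in KO cells. Control EtOH was the lowest group, and KO EtOH overlapped control DHT. TUBA1A rose 1.94-fold in control, and its KO value of -0.35 did not pass (difference -1.30, standard error 0.25, adjusted p = 0.00125). It shares 19.4% of its 50-base words with other genes, TUBA1B first. CFAP69 (chr7:89874488-89940377), a protein of cilia and flagella, had 223.9 and 207.1 in control EtOH against 405.3 to 477.0 in the other 6 samples. It rose 2.14-fold in control, with -0.13 in KO (difference -1.23, standard error 0.25, adjusted p = 0.00264).

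EFNB2 (chr13:107142093-107188010), the ephrin-B2 ligand of Eph receptors, had 975.5 and 835.3 before and 853.2 and 810.3 after DHT in control cells, against 353.7 and 385.3 before and 708.5 and 728.1 after DHT in KO cells. KO EtOH was lowest, and EFNB2 rose 1.94-fold in KO beside a log2 value of -0.12 in control that did not pass (difference 1.08, standard error 0.23, adjusted p = 0.00439). ARHGEF26 (chr3:153838792-153975616), a guanine nucleotide exchange factor, had 12654.9 and 11365.0 without and 7703.4 and 7858.0 with DHT in control cells, and 9919.7 and 9781.9 without and 11291.7 and 10330.2 with DHT in KO cells. DHT lowered it in control by a log2 value of -0.63 and left it at 0.13 in KO (difference 0.76, standard error 0.18, adjusted p = 0.0435).

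**Figure D2:**
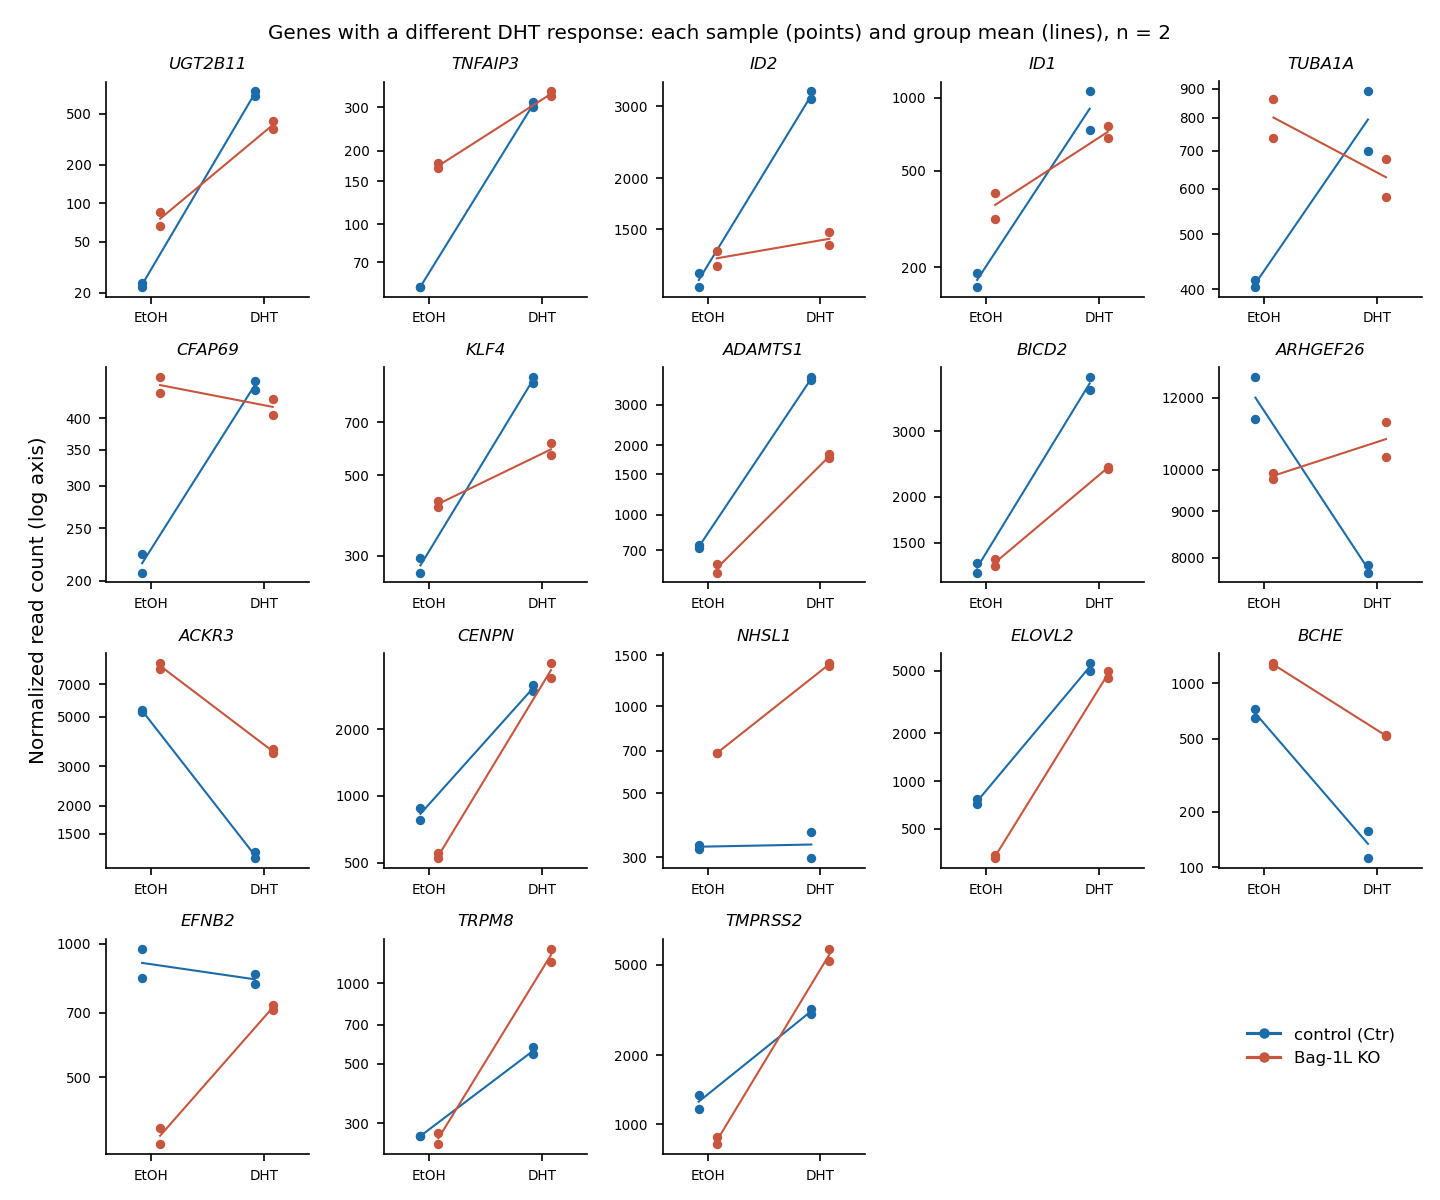
Each panel is 1 of 18 of these genes, with the normalized read count on a logarithmic vertical axis and EtOH and DHT on the horizontal axis; points are the 2 replicates of each group and lines join the group means of control (blue) and Bag-1L KO (red) cells. In TMPRSS2, UGT2B11 and KLF4 the lines cross, in TRPM8 and BICD2 they part from a shared start, and in ELOVL2 and TNFAIP3 they start apart and come close without meeting.

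The lines were next compared at each end to see where the difference arose. In EtOH, 722 of 16511 genes (4.37%) differed between KO and control, with 410 higher in KO (2.48%) and 312 lower (1.89%). In DHT, 1106 of 16033 (6.9%) differed, with 670 higher (4.18%) and 436 lower (2.72%). Of the 19 genes, 8 passed in EtOH alone, 6 in DHT alone, 4 at both ends and 1 (ARHGEF26) at neither. These end comparisons use the same samples as the difference and are given to describe it.

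In EtOH alone, KO was higher for TNFAIP3 (1.64), CFAP69 (1.10), ID1 (1.02) and TUBA1A (0.97) and lower for 4 genes, including EFNB2 (-1.29), ELOVL2 (-1.16) and CENPN (-0.63), as log2 values of KO over control. The 8 genes thus divided evenly between a raised and a lowered start. In DHT alone, KO was higher for TRPM8 (1.19) and TMPRSS2 (0.82) and lower for ID2 (-1.17), ADAMTS1 (-1.12), BICD2 (-0.76) and KLF4 (-0.64). TMPRSS2 was also lower in EtOH, at -0.57 with an adjusted p of 0.00406, which fell short of the fold change minimum. Likewise KLF4 was at 0.56 in EtOH, with an adjusted p of 0.0193. ARHGEF26, which passed at neither end, was at 0.47 in DHT with an adjusted p of 0.00496, also short of the fold change minimum. At both ends, UGT2B11 went from 1.70 to -0.81, while NHSL1 (1.07 and 2.07), BCHE (0.88 and 1.95) and ACKR3 (0.66 and 1.54) were higher in KO before DHT and higher still after it.

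The same genes were then read in full medium, in 4 samples outside the difference, where 8.6% of 14656 genes differed between the lines. All 6 genes that differed in DHT alone had the same sign in FM, and 4 of them passed, namely TRPM8 (1.20), TMPRSS2 (0.84), ADAMTS1 (-0.88) and BICD2 (-0.59). Of the 8 genes that differed in EtOH alone, 4 had the same sign and 0 passed. For comparison, 655 of the 719 genes called in EtOH with a value in FM had the same sign there (91.1%) and 300 also passed (41.7%), and of 1105 genes called in DHT 985 had the same sign (89.1%) and 415 passed (37.6%). With 6 and 8 genes these shares are a description, and their difference from the background was not tested. In FM the TMPRSS2 counts, scaled among the FM samples only, came to 3629.3 and 3636.5 in control cells against 6123.5 and 6863.8 in KO cells, and those of TRPM8 to 783.2 and 785.3 in control cells against 1834.6 and 1764.8 in KO cells. NHSL1 had its largest value there, at 2.58, and UGT2B11 was at -0.84, the sign of its DHT end, whereas BCHE (-0.02) and ACKR3 (0.34) did not pass.

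**Figure D3:**
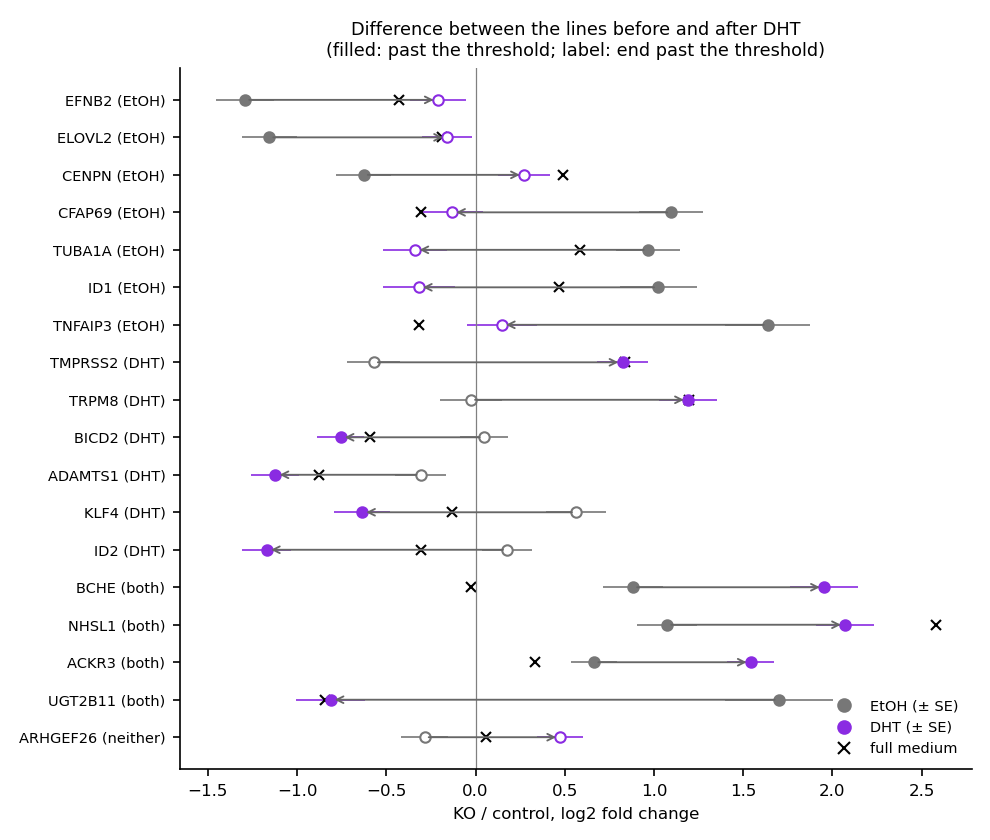
For 18 of the 19 genes, circles give the log2 ratio of KO over control in EtOH (grey) and in DHT (purple) with standard errors as bars, arrows run from EtOH to DHT, and crosses give the ratio in full medium. Filled circles passed the threshold; the crosses of TMPRSS2 and TRPM8 fall on their DHT circles, while those of TNFAIP3, CFAP69 and CENPN lie on the other side of zero from their EtOH circles.

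Gene lists compiled for this work place some of the 19 genes within pathways, while others, such as ID1, ID2, BCHE and ACKR3, are in no list. Counts below are over all members that could be fitted, medians over members that averaged at least 100 normalized counts (the count minimum), and the median difference over all 11463 such genes was -0.00068, with 5708 positive and 5755 negative. Calls in the lists are from the fit of 8 samples unless the fit of 12 is named. Of 78 androgen-induced genes, 62 rose with DHT in control and 64 in KO, beside 5.74% and 4.34% of all genes tested. The median log2 change over 73 of the 78 was 1.45 in control and 1.55 in KO. Their median difference was 0.04, with 3 called positive (TMPRSS2, TRPM8 and CENPN) and 1 negative (ADAMTS1). CHRNA2, a nicotinic receptor subunit, rose in both lines, and its difference of 1.03 was not called (standard error 0.30, adjusted p = 0.394).

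Of 12 UDP-glucuronosyltransferases fitted, 4 rose with DHT in control, beside 5.74% of all genes tested. In KO 3 rose and 2 fell, beside 4.34% and 2.95%. All 7 with the count minimum had a negative difference, with a median of -0.70, while KO over control had a median of 1.03 in EtOH and -0.32 in DHT. UGT2B15 was at 101.9 and 123.2 without and 83.1 and 102.3 with DHT in control cells, and 239.7 and 229.4 without and 113.7 and 124.2 with DHT in KO cells. KO EtOH stood apart from the other 6 samples (1.06 over control), and the DHT value of -0.28 in control and -0.98 in KO passed in KO. Its difference of -0.70 was not called (standard error 0.35, adjusted p = 1.0). Shared sequence was measured for UGT2B11 and UGT2B28 and not for the other members.

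Immediate early genes had a median difference of -0.32 over 18 members, with 14 negative, beside 5755 of 11463 genes. With DHT 10 of 31 rose in control and 6 in KO, beside 5.74% and 4.34% of all genes tested. KLF4 was the only member with a called difference. KLF6, a relative of KLF4, had 966.0 and 928.9 in control cells with DHT but 419.8 and 442.9 in KO cells with DHT, with a difference of -0.67 (standard error 0.24) that did not pass. Of 36 NF-kB feedback and target genes, 6 rose in control and 2 in KO, beside 5.74% and 4.34% of all genes tested. In EtOH 6 were higher in KO, beside 2.48% of all genes, and 0 lower. NFKBIA, the inhibitor that retains NF-kB in the cytoplasm, had 953.4 and 1113.1 before and 2625.2 and 2793.9 after DHT in control cells, against 2178.9 and 1913.9 before and 3379.8 and 3741.1 after DHT in KO cells. It rose in both lines, and its difference of -0.59 (standard error 0.21) was not called. The list's median difference was -0.08.

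Most genes of protein folding and secretion rose with DHT in both lines. Of 40 genes of endoplasmic reticulum folding and transport, 30 rose in control and 24 in KO, beside 5.74% and 4.34% of all genes tested. Their median changes were 0.82 and 0.67. KO was lower than control for 13 in EtOH and 19 in DHT, with 0 higher at either end, where 1.89% and 2.72% of all genes tested were lower. The difference was negative for 33 of 39 members, beside 5755 of 11463 genes, with a median of -0.12 and 0 called. HSP90B1, the Hsp90 chaperone of the endoplasmic reticulum, had 64178.0 and 78154.9 without and 123272.5 and 151707.2 with DHT in control cells, and 40818.3 and 38897.2 without and 58453.7 and 54082.5 with DHT in KO cells. Its KO samples in DHT stayed below the control samples in EtOH. HSPA5, the Hsp70 of the same compartment, rose 1.03 in control and 0.59 in KO on the log2 scale, and its difference, -0.45 with a standard error of 0.20, was not called.

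More ATF4 stress genes passed between the lines in DHT than in EtOH. Of 23, 6 rose with DHT in control and 2 in KO, beside 5.74% and 4.34% of all genes tested. KO was lower for 6 in EtOH and 14 in DHT, beside 1.89% and 2.72%. The difference was negative in 20 of 23, against 5755 of 11463 genes, with a median of -0.20, and 0 were called. DDIT3, a transcription factor of the stress response, had 642.0 and 889.8 without and 1110.6 and 1346.3 with DHT in control cells, and 636.0 and 576.5 without and 553.3 and 639.5 with DHT in KO cells. It rose 0.68 on the log2 scale in control with -0.02 in KO, and its difference, -0.71 with a standard error of 0.27, was not called. Among 35 Hsp70, Hsp90 and BAG chaperones, 2 rose with DHT in control and 0 in KO, beside 5.74% and 4.34% of all genes tested. The count in control was near the share of all genes. Of 31 chaperones, 26 had a negative difference (5755 of 11463 over all genes), the median was -0.11 and 0 were called.

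Cholesterol synthesis genes rose in 15 of 28 cases in control and 10 of 28 in KO, beside 5.74% and 4.34% of all genes tested. Their median changes were 0.65 and 0.49 over 26 genes. HMGCS1, which makes the precursor of mevalonate, had 7312.1 and 7004.6 before and 21187.5 and 21674.2 after DHT in control cells, against 4626.3 and 4969.3 before and 10849.5 and 9456.5 after DHT in KO cells. KO was below control in both conditions without overlap, and the difference of -0.50 (standard error 0.19) was not called. Genes of fatty acid synthesis, activation and oxidation rose in 11 of 30 cases in each line, beside the same 5.74% and 4.34%. Their median difference was near 0 (0.0049), ELOVL2 being the only one called in the fit of 8 samples. The fit of 12 samples also called FADS1, a fatty acid desaturase, whose difference was -0.85 in the fit of 8 samples.

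More cell cycle genes passed between the lines in EtOH than in DHT. Of 35 genes of G1/S and DNA replication, 8 were lower in KO in EtOH and 4 in DHT, beside 1.89% and 2.72% of all genes tested. The difference was positive for 31 of 34, beside 5708 of 11463 genes, with a median of 0.16 and 0 called. CDK6, a kinase of G1, had 310.4 and 282.8 without and 688.1 and 544.3 with DHT in control cells, and 134.8 and 142.4 without and 446.3 and 389.0 with DHT in KO cells, with a difference of 0.54 (standard error 0.28) that was not called. Of 32 G2/M and mitotic genes, 10 were lower in KO in EtOH and 5 in DHT, beside the same 1.89% and 2.72%. Their median difference was 0.06 and 0 were called. Among 24 calcium and TRP channel genes 5 were higher in KO in DHT and 1 in EtOH, beside 4.18% and 2.48% of all genes tested, and TRPM8 was the only one with a called difference. The 56 cytosolic ribosomal protein genes had 28 positive and 28 negative differences, and 0 of them were called in any of the 5 comparisons.

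**Figure D4:**
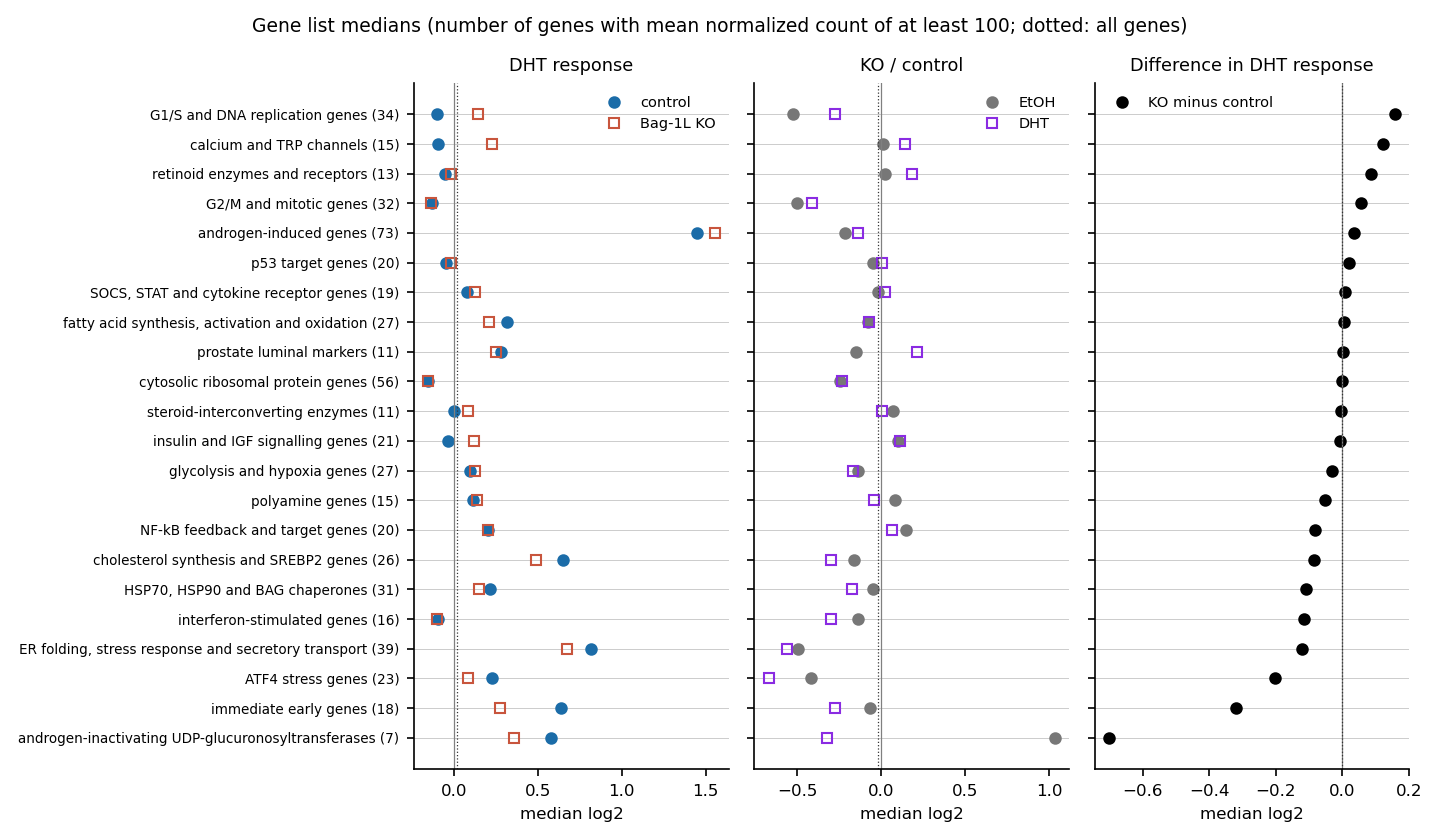
Medians over each gene list, with the number of members that averaged at least 100 normalized counts in parentheses; the left panel gives the log2 change with DHT in control (filled) and KO (open), the middle panel KO over control in EtOH (filled) and DHT (open), and the right panel the median difference in response. Dotted lines are the medians of all genes; androgen-induced genes have the largest median changes with DHT (1.45 and 1.55), and the UDP-glucuronosyltransferases lie farthest left (-0.70).

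Further lists had 0 members called in the fit of 8 samples. The fit of all 12 samples, described below, called RDH16 and ALDH1A3 of the retinoid list, GRB10 of insulin and IGF signalling, SAT1 of the polyamine genes and DDC of the neuroendocrine and neural genes. The median difference was 0.09 for retinoid enzymes and receptors, 0.02 for p53 targets, 0.01 for SOCS, STAT and cytokine receptor genes, 0.00 for luminal markers and -0.0042 for steroid-interconverting enzymes. It was -0.0075 for insulin and IGF signalling, -0.03 for glycolysis and hypoxia, -0.05 for polyamine genes and -0.12 for interferon-stimulated genes. Only 3 of the neuroendocrine and neural genes had the count minimum.

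Fitting all 12 samples together, so that full medium also enters the shared estimate of spread, called 55 of 13478 genes (0.408%), including all 19. The 36 further genes, 20 with a positive and 16 with a negative difference, all had an unadjusted p under 0.05 in the fit of 8 samples. Both fits take the difference from the same 8 samples, so this overlap was built in and is no separate support. The 10 with the largest differences at the count minimum were UGT2B28, RUNX1, RDH16, KRT80, TNFSF4, CHST2, PHLDB2, CHRNA2, MICAL1 and SAT1. Differences and standard errors for them are from the fit of 8 samples, in which none passed.

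RUNX1, a transcription factor, had 37.5 and 38.4 before and 392.8 and 325.3 after DHT in control cells, against 36.9 and 42.1 before and 159.3 and 131.4 after DHT in KO cells. The lines shared a start and parted in DHT, with a difference of -1.36 (standard error 0.40). RDH16, a retinol dehydrogenase, was lowered by DHT in control, from 188.4 and 170.7 to 96.4 and 82.9, and had 178.6 and 193.1 in KO EtOH and 206.6 and 232.2 in KO DHT (difference 1.24, standard error 0.33). TNFSF4, the ligand of OX40, had 139.4 and 110.1 before and 101.5 and 99.2 after DHT in control cells, against 189.0 and 209.4 before and 350.9 and 349.3 after DHT in KO cells (difference 1.13, standard error 0.32).

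SAT1, the enzyme that acetylates spermidine and spermine, had 851.5 and 1145.4 before and 5242.3 and 7075.4 after DHT in control cells, against 1246.7 and 1109.0 before and 3855.2 and 3648.4 after DHT in KO cells. The lines overlapped before DHT and were apart after it, and the difference was -0.95 (standard error 0.26). MICAL1, an oxidoreductase that acts on actin, was lower in KO at both ends (-1.12 in EtOH and -2.12 in DHT) and lay just outside the threshold, with a difference of -1.01 and an adjusted p of 0.0550. The other genes just outside were UGT2B28 (0.116) and CBLN2 (difference 0.70, adjusted p = 0.116), and those just inside were BCHE (0.0367), ARHGEF26 (0.0435) and ADAMTS1 (0.0455). PHLDB2 stood lower in KO throughout, with 43.8 and 44.9 in KO EtOH and 478.7 and 451.1 in KO DHT against 403.7 and 318.2 in control EtOH and 1811.0 and 1833.3 in control DHT. Its difference was 1.05 (standard error 0.28). The differences of the other 3 were -1.13 for KRT80, a keratin, -1.09 for CHST2, a sulphotransferase, and 1.03 for CHRNA2.

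The count of 19 also moved with single libraries. Without control EtOH replicate 1 or 2 it was 41 or 53, and all 19 genes were among them. Without control DHT replicate 1 or 2 it was 14 or 5, of which 11 and 5 were among the 19. Leaving out KO EtOH replicate 1 or 2 gave 3 or 4 genes, and leaving out KO DHT replicate 1 or 2 also gave 3 or 4, all among the 19. UGT2B11, TMPRSS2 and ID2 passed in all 8 of these fits, with differences between -2.70 and -2.33, between 1.29 and 1.49, and between -1.41 and -1.29. TUBA1A passed in 5 and TRPM8 in 4, and each of the other 14 in 2 or 3, and no difference changed sign. All 16 of these genes lost their call without KO EtOH replicate 1 and without KO DHT replicate 1.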

How the data were processed

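Poly(A) RNA of 12 samples was sequenced, and the files hold whole-number read counts per gene, deposited by the authors without normalization. The authors made stranded TruSeq libraries, aligned the reads to GRCh37 with TopHat2 (2.0.11, with CASAVA 1.7 upstream) and tallied them by Ensembl gene using HTSeq (0.5.3p3), versions as in the submitters' processing notes. HTSeq's strand setting and the Ensembl release are not given in the sources used here. Reads with several alignments, or within several genes, enter no gene's count, which lowers the counts of close paralogues and overlapping genes. Besides the overlaps named above, the gene bodies of BAG1, TUBA1A, MICAL1, PHLDB2, RUNX1 and SAT1 also overlap coding genes.

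Each file lists 63677 gene identifiers, of which 55665 were matched to symbols and positions in GENCODE v44lift37 (GRCh37). The 5 tallies that name no gene were left out of the fits and of the gene count totals. In the starved samples, reads ambiguous between genes came to between 7.01% and 7.97% of a file's sum. Reads in no gene came to between 3.55% and 4.58%. For these shares the sum includes the gene counts and the 5 tallies.

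Genes with at least 10 counts summed over the samples were fitted with DESeq2 (1.42.0, R 4.3.3), which is also the study's tool, with a coefficient for each of the 4 groups, median-of-ratios size factors, Wald tests, unshrunken log2 fold changes and Benjamini-Hochberg adjustment over all genes tested. The threshold was an adjusted p of at most 0.05 and a fold change of at least 1.5. All adjusted p-values in the text are from DESeq2 unless edgeR is named. The 8 starved samples were fitted alone so that full medium does not enter their estimate of spread, and the 4 samples in full medium were fitted separately. Data for the difference were also simulated over 24628 genes, with changes put only into genes that averaged at least 100 normalized counts. There DESeq2 called 63% of 100 genes changed 2-fold and 96% of 100 changed 4-fold. It also made 24 false calls among the genes left unchanged. That number comes from data with many genes changed on purpose, so it cannot be set against the 19 genes called in the real data. The share of false calls among those 19 was not measured.

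The genes named are BAG1, every gene past the threshold in the difference that averaged at least 100 normalized counts, the 10 largest further calls of the fit of 12 samples, list members called in either fit, up to 4 examples per list and the 3 genes on each side of the threshold. Some results that these rules name are not reported here. The comparison, the gene lists and these rules were chosen with earlier results of these data known. Shared 50-base words were counted over GENCODE exons.

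Alternatives were edgeR's quasi-likelihood test (4.0.16), all 12 samples in 1 fit, TMM size factors, no filter or a filter of 10 counts in every sample, no fold change minimum, a replicate block, counts thinned to the lowest total, and each sample left out in turn.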

Additional observations from a re-analysis of the deposited data

Results flagged for a closer look

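A test of the difference between the lines marked the DHT response of 19 genes, with DESeq2 adjusted p-values of at most 0.05. Their signs stayed the same in all fits that left out a sample. Those fits reuse the samples that chose the genes, so this is no separate support. Values for 18 of the 19 genes are given, as log2, KO response minus control response. Stronger induction in KO gave 1.39 for TMPRSS2, 1.22 for TRPM8, 0.998 for ELOVL2, 0.997 for NHSL1 and 0.90 for CENPN. Weaker induction gave -2.51 for UGT2B11, -1.49 for TNFAIP3, -1.35 for ID2, -1.34 for ID1, -1.20 for KLF4, -0.81 for ADAMTS1 and -0.80 for BICD2. Weaker repression gave 1.07 for BCHE and 0.88 for ACKR3. Estimates of opposite sign gave -1.30 for TUBA1A, -1.23 for CFAP69, 1.08 for EFNB2 and 0.76 for ARHGEF26. The groups of 2 samples are too small for a check of single samples that stand apart.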

How the results depend on the processing

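The number of genes with a different DHT response, 19, was 3 with edgeR's quasi-likelihood test, 55 with all 12 samples in the fit and between 3 and 53 when a sample was left out. It was 21 with TMM size factors, 20 without a filter on low counts, 21 with at least 10 counts in every sample, 19 without a fold change minimum and 18 with thinned counts. All 19 genes were among the calls of these settings, except with edgeR (3 of 19), with thinning (18, BCHE lost) and in the fits without a control DHT or KO sample. When a sample was left out, the genes changed by DHT numbered between 1397 and 2038 in control and between 738 and 1241 in KO, and KO and control differed in between 256 and 1265 genes in EtOH, 518 and 1208 in DHT and 620 and 1025 in FM. In FM, edgeR gave 2225 genes and no fold change minimum 5065, beside 1261. No called result changed direction. Medians of the gene lists moved by over the spread between samples in 52 recomputed values and by less in 260. A fit without a sample leaves 1 group with a lone sample, which is assumed to vary like the others. The causes of these shifts were not tested.

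The replicate numbers are shared by all groups, but the replicate 2 minus replicate 1 differences of pairs of groups correlated between -0.42 and 0.69 across 11463 genes, and 3 of the 6 pairs were negative. The value of 0.69 was between control EtOH and control DHT. All 3 negative pairs included KO EtOH, with -0.21 between KO EtOH and KO DHT. The numbers were therefore not taken as pairing in the main fit. With a replicate block common to the groups, 26 genes had a different response, and with a replicate block within each line 45, both including the 19. Under the block within each line, DHT changed 1733 genes in control cells and 1154 in KO cells, and 708 and 1123 genes differed between the lines in EtOH and DHT. In FM the block gave 910.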
